A study of Arabidopsis thaliana with 6 samples.

Results

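The chloroplast genome of Arabidopsis thaliana encodes the core of the photosynthetic apparatus, and the transcripts of these genes were followed across all 6 arrays of the series. A gene was included when the platform annotation gave its probe set a single symbol, the gene lay on the plastid genome, and the symbol began with psa, psb, pet or atp or was rbcL. This rule used no measured value and found 33 genes, each with 1 probe set, among 22746 tested probe sets, and all 33 genes of this kind in the RefSeq gene table (assembly TAIR10.1) were represented. They comprised 5 genes of photosystem I (psa), 15 of photosystem II (psb), 6 of the cytochrome b6f complex (pet), 6 of the ATP synthase (atp) and rbcL. The material was whole rosettes, 5-6 weeks old, of the pgm mutant in Col-0, a line that lacks plastidic phosphoglucomutase and makes almost no starch. All 3 groups carried this mutation, so no wild type entered any comparison. The groups were 4 hours of low CO2 in prolonged darkness, 4 hours of low CO2 in light and 4 hours of normal CO2 in light, with 2 biological replicates each that carry the letters A and B, and several rosettes were pooled for each RNA. They are called here the dark, the low-CO2 light and the normal-CO2 light group. No probe set is named for the mutated gene, PGM1, so the genotype was not checked on these arrays.

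Photosystem II splits water and passes electrons to the cytochrome b6f complex, which pumps protons and feeds photosystem I, and the ATP synthase turns the proton gradient into ATP. Rubisco, whose large subunit is the product of rbcL, fixes CO2. Plastid genes are mostly transcribed by a bacterial-type polymerase as long multi-gene transcripts that are later cut and trimmed, and the amount of a plastid mRNA depends on its stability as well as on its transcription. Other subunits of the same complexes are encoded in the nucleus.

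The deposited values are linear probe set intensities, whose mean after trimming 2% at each end was 100.01 on every array. An intensity is comparable between arrays for one probe set and not between genes. The 33 probe sets read from 43.6 to 4334.7, and the highest intensity of any probe set was 4241.2 to 5196.1 per array. LHCB4.1, a nuclear light-harvesting protein of photosystem II used as a check for green tissue, read 3894.9 to 4708.7 on the 6 arrays. In whole rosettes, fewer chloroplast-bearing cells and less plastid RNA per cell cannot be told apart.

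No plastid photosynthesis transcript passed the test for a change with light at low CO2, although more of them were higher than lower. The change from low CO2 in darkness to low CO2 in light, called the light step, had a median log2 fold change of 0.19 over the 33 genes, against 0.02 over all tested probe sets. In the limma model, 0 of 33 genes passed an adjusted p of 0.05, where 1.04% of all tested probe sets did, and 3 of the 33 (petN, rbcL and psaC) had an unadjusted p under 0.05, as did 16.5% of all tested probe sets. The fold change was positive for 24 genes and negative for 9, with a range from -0.23 for psaA to 0.97 for petN. Both arrays in light lay above both arrays in darkness for 12 genes (23.6% of all tested probe sets) and below for 1 gene, petB (22.5% of all). The median rested on the low-CO2 light arrays: it was -0.01 when array B of that group was left out and 0.34 when array A was, and leaving out dark B gave 0.10. By complex, leaving out array B gave -0.10 for photosystem I, -0.02 for photosystem II, 0.25 for cytochrome b6f and -0.06 for the ATP synthase, and leaving out array A gave 0.36, 0.26, 0.28 and 0.55. Leaving out dark B gave -0.04, 0.09, 0.19 and 0.18.

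**Figure D1:**
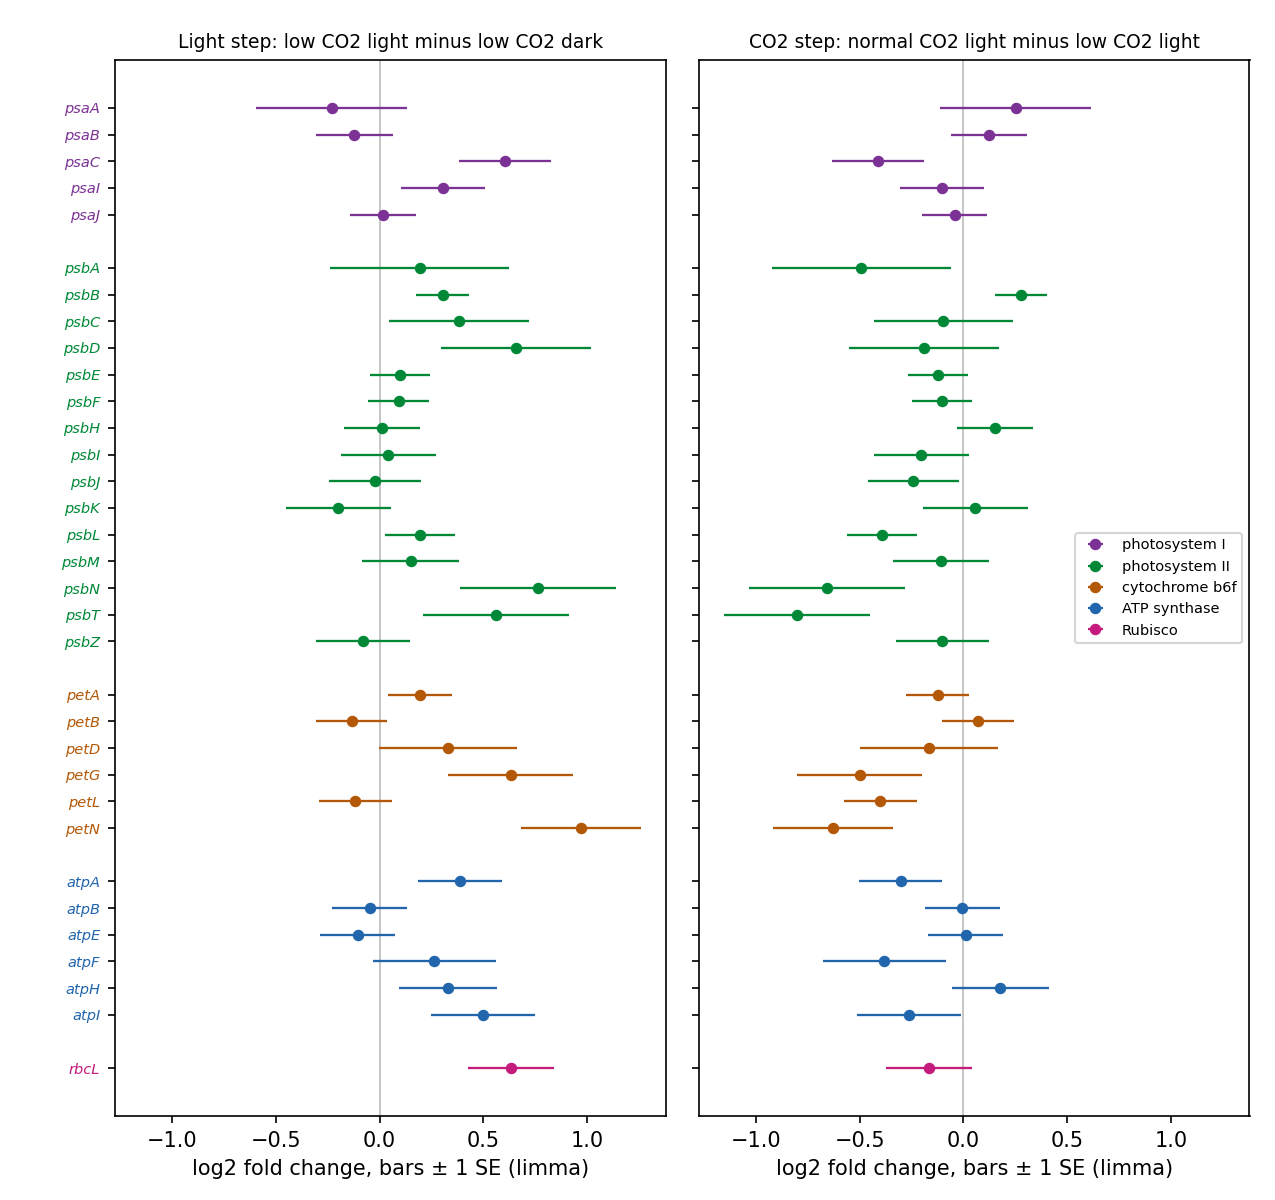
Log2 fold change of each of the 33 genes in the light step (left) and in the CO2 step (right), coloured by complex, with bars of ± 1 SE from the limma model over 6 arrays. The light step runs from -0.23 (psaA) to 0.97 (petN) and the CO2 step from -0.80 (psbT) to 0.28 (psbB).

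The transcript of rbcL read 152.7 and 149.2 in darkness (A, then B), 192.1 and 295.6 in the low-CO2 light group, and 212.6 and 211.4 in the normal-CO2 light group. All 4 arrays in light were above both in darkness, and low-CO2 light B was the highest. The light step of rbcL was 0.64 ± 0.21 (log2, SE, n = 2 per group, limma adjusted p = 0.203), with a 95% interval of 0.13 to 1.14 that is not adjusted for the number of probe sets. The A arrays alone gave 0.32 and the B arrays 0.95, and leaving out low-CO2 light B gave 0.33.

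In photosystem I, psaC encodes the subunit that carries the terminal iron-sulfur clusters. It read 134.7 and 112.3 in the dark group, 195.2 and 186.3 in low-CO2 light, and 175.9 and 113.6 in normal-CO2 light. The 2 arrays of low CO2 in light were the highest, and the light step was 0.60 ± 0.22 (limma adjusted p = 0.246). The reaction-centre genes psaA and psaB had -0.23 ± 0.36 and -0.12 ± 0.18. For psaA the 2 arrays of low CO2 in light were the lowest and the highest of all 6, with 1301.4 and 2957.7 against 2217.7 to 2416.2 on the other 4. The small subunits psaI and psaJ had 0.31 and 0.02, and the median of the 5 genes was 0.02.

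In photosystem II the light step had a median of 0.15 over 15 genes, from -0.20 for psbK to 0.76 for psbN. psbB encodes CP47, a core antenna protein. Its intensity was 167.5 and 167 in the dark group, 196.8 and 220.1 in low-CO2 light, and 249.8 and 258 in normal-CO2 light. The 3 groups did not overlap at either step, and the light step was 0.30 ± 0.13 (limma adjusted p = 0.306). psbN, needed for photosystem II assembly, read 97.3 and 140.9 in darkness against 137 and 302.8 at low CO2 in light, so the groups overlapped. psbD, the gene of the D2 reaction-centre protein, had 0.66 ± 0.36, made of -0.01 between the A arrays and 1.33 between the B arrays. psbE and psbF, the subunits of cytochrome b559, had 0.10 ± 0.14 and 0.09 ± 0.15.

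In the cytochrome b6f complex the median was 0.26 over 6 genes. petN encodes a small subunit, and its intensity was 130.5 and 103.1 in the dark group, 277.6 and 197.7 in low-CO2 light, and 193.8 and 114.2 in normal-CO2 light. Both arrays of low CO2 in light were the highest. The light step of petN was 0.97 ± 0.29 (limma adjusted p = 0.172, 95% interval 0.27 to 1.67), a 1.96-fold difference, with 1.05 between the A arrays and 0.89 between the B arrays. petG, another small subunit, had 0.63 ± 0.30, and the 2 groups did not overlap. The larger subunits petA (cytochrome f), petB (cytochrome b6) and petD (subunit IV) had 0.20, -0.13 and 0.33.

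In the ATP synthase the median was 0.30 over 6 genes. atpI, a membrane subunit of the proton channel, read 152 and 115.9 in the dark group, 188.1 and 193 in low-CO2 light, and 201 and 123.1 in normal-CO2 light. The groups of the light step did not overlap, and its light step was 0.50 ± 0.25 (limma adjusted p = 0.396), or 0.31 when dark B was left out. Of the subunits of the catalytic head, atpA (alpha) had 0.39 ± 0.20 and atpB (beta) had -0.05 ± 0.18, with overlapping 95% intervals of -0.10 to 0.88 and -0.49 to 0.39. atpH, atpF and atpE had 0.33, 0.26 and -0.11.

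Differences between normal and low CO2 in light were mostly negative, and none passed the threshold. The step from low to normal CO2, called the CO2 step, had a median of -0.12 over the 33 genes, against -0.01 over all tested probe sets, with 8 positive and 25 negative values. In limma 0 of 33 genes passed, where 14.6% of all tested probe sets did, and 0 had an unadjusted p under 0.05, against 29.7% of all. Groups did not overlap for 1 gene that was higher at normal CO2, psbB (29.6% of all tested probe sets), and for 6 that were lower (26.6% of all): petN, petL, petA, psaC, psbL and atpA. Leaving out low-CO2 light B gave a median of 0.07, and leaving out its A array gave -0.38. Leaving out normal-CO2 light A or B gave -0.21 or -0.05. Both steps share the arrays of low CO2 in light, so a high value there enters them with opposite sign.

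In the CO2 step, medians of the complexes were -0.04 for photosystem I, -0.12 for photosystem II, -0.28 for cytochrome b6f and -0.13 for the ATP synthase. Leaving out low-CO2 light B turned these to 0.18, 0.09, -0.25 and 0.10, and leaving out its A array to -0.34, -0.45, -0.32 and -0.21. Leaving out normal-CO2 light A gave -0.10, -0.23, -0.60 and -0.10, and leaving out its B array gave 0.01, -0.05, -0.08 and -0.08. psbL, a small subunit of photosystem II, had 545.3 and 478.9 in the dark group, then 559.4 and 612.6 in low-CO2 light, against 506.3 and 389.2 in normal-CO2 light. Both normal-CO2 arrays were below both low-CO2 light arrays, with -0.39 ± 0.17 (limma adjusted p = 0.183), or -0.21 when normal-CO2 light B was left out. petL, a small cytochrome b6f subunit, read 573.5 and 653.9 in the dark group, 501.5 and 633.9 in low-CO2 light, and 467.4 and 386.8 in normal-CO2 light. Its 2 values at normal CO2 were the lowest of the 6, and the CO2 step was -0.40 ± 0.18 (limma adjusted p = 0.189), or -0.23 and -0.27 when low-CO2 light B or normal-CO2 light B was left out. atpA read 1079 and 933.6 in the dark group, 1097.5 and 1573.5 in low-CO2 light, and 1037.2 and 1090.3 in normal-CO2 light. Its normal-CO2 arrays lay below the low-CO2 light ones, by a difference of -0.30 ± 0.20 (limma adjusted p = 0.384), or -0.05 and -0.56 when low-CO2 light B or A was left out. For rbcL the step was -0.16 ± 0.21 (limma adjusted p = 0.673), or 0.14 and -0.47 when those arrays were. petN had -0.63 ± 0.29 and psaC -0.41 ± 0.22. Leaving out normal-CO2 light B took them to -0.27 and -0.11, leaving out its A array to -0.99 and -0.71, and petN was -0.39 when low-CO2 light A was left out. The largest difference, in psbT, was -0.80 ± 0.35, but it was 0.03 between the A arrays and -1.63 between the B arrays.

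Between the dark group and the normal-CO2 light group, which differ in both light and CO2, psbB rose and was the single gene to pass. It went from 167 ± 0.354 (SD, n = 2) to 254 ± 5.8 (n = 2), 1.5-fold on the log2(intensity + 7.3) scale, or 0.58 ± 0.13 (limma adjusted p = 0.024). That is 1 of 33 genes where 20.5% of all tested probe sets passed, and the median over the 33 was 0.02, against 0.03 over all. The call of psbB ended without either array of normal CO2 or either array of darkness, with a log2 fold change of 0.56 to 0.60 and an adjusted p of 0.0905 to 0.127. It also ended with arrays shifted to a common median (0.48, adjusted p = 0.0642) and with arrays scaled to the spiked controls (0.60, adjusted p = 0.176). Arrays of normal CO2 lay above those of darkness for 7 genes (31.8% of all tested probe sets) and below for 3 (26.5% of all). The 7 were psbB, psbC, psbH, psaI, petA, atpH and rbcL, and the 3 were petL, psbK and psbZ. For rbcL the difference was 0.47 ± 0.21 (limma adjusted p = 0.174).

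**Figure D2:**
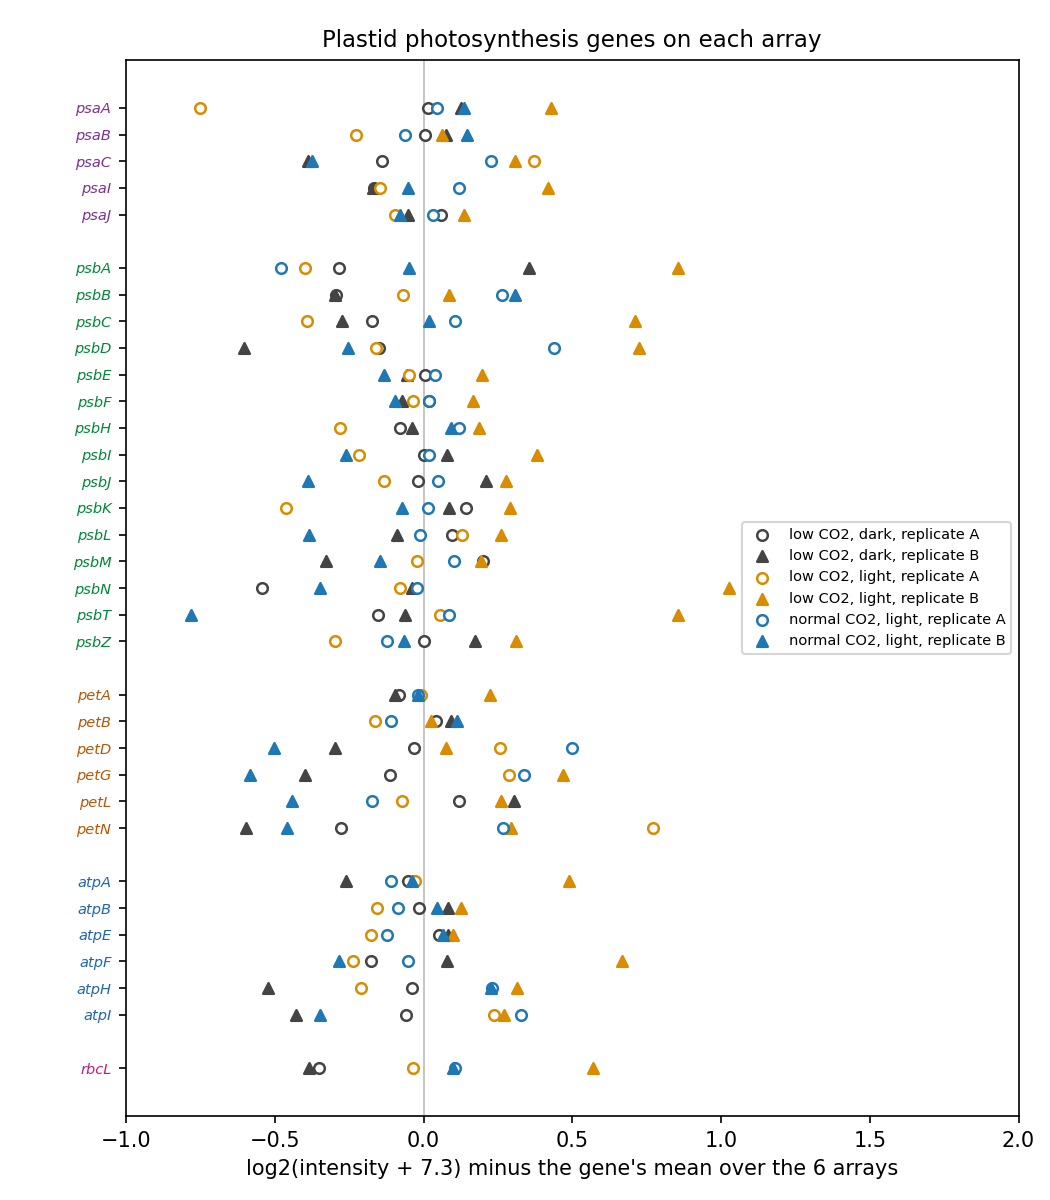
For each of the 33 genes, log2(intensity + 7.3) on each of the 6 arrays minus the gene's mean over them, with circles for replicate A, triangles for replicate B and colours for the 3 treatments. Low CO2 in light B is the rightmost symbol for 24 of the 33 genes.

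The letters stood furthest apart at low CO2 in light. There, B was above A for 30 of the 33 genes, with a median log2 difference of 0.33 and a range from -0.47 (petN) to 1.25 (psbA). Over all tested probe sets B was above A there for 12338 of 22746, with a median of 0.03. In darkness B was above A for 14 of 33 (median -0.02) and at normal CO2 for 10 of 33 (median -0.11). For all tested probe sets these counts were 10680 of 22746 (median -0.02) and 8542 of 22746 (median -0.08). Low CO2 in light B gave the highest intensity of all 6 arrays for 24 of the 33 genes, which held for 19.7% of all tested probe sets. Low CO2 in light A gave the lowest for 10 of the 33, against 13.7% of all. Dark B gave the lowest for 11 (18.9% of all) and normal-CO2 light B for 10 (27% of all). The median light step was -0.06 between the A arrays and 0.37 between the B arrays, and the median CO2 step was 0.12 and -0.47. Over all tested probe sets these medians were -0.01 and 0.03 in the light step, and 0.09 and -0.09 in the CO2 step. With 1 array per letter and treatment, whether a step differed between the letters cannot be tested gene by gene.

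The size of this gap is given by complex, with no test between complexes. At low CO2 in light, B exceeded A for 15 of 15 photosystem II genes (median 0.60), 6 of 6 ATP synthase genes (0.40), 4 of 5 photosystem I genes (0.29), 4 of 6 cytochrome b6f genes (0.19) and rbcL (0.60). At normal CO2 the cytochrome b6f genes had a median of -0.50, the photosystem II genes of -0.17 and the ATP synthase genes of 0.03. The genes petN, psaC and petD were lower in B than in A in all 3 treatments.

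**Figure D3:**
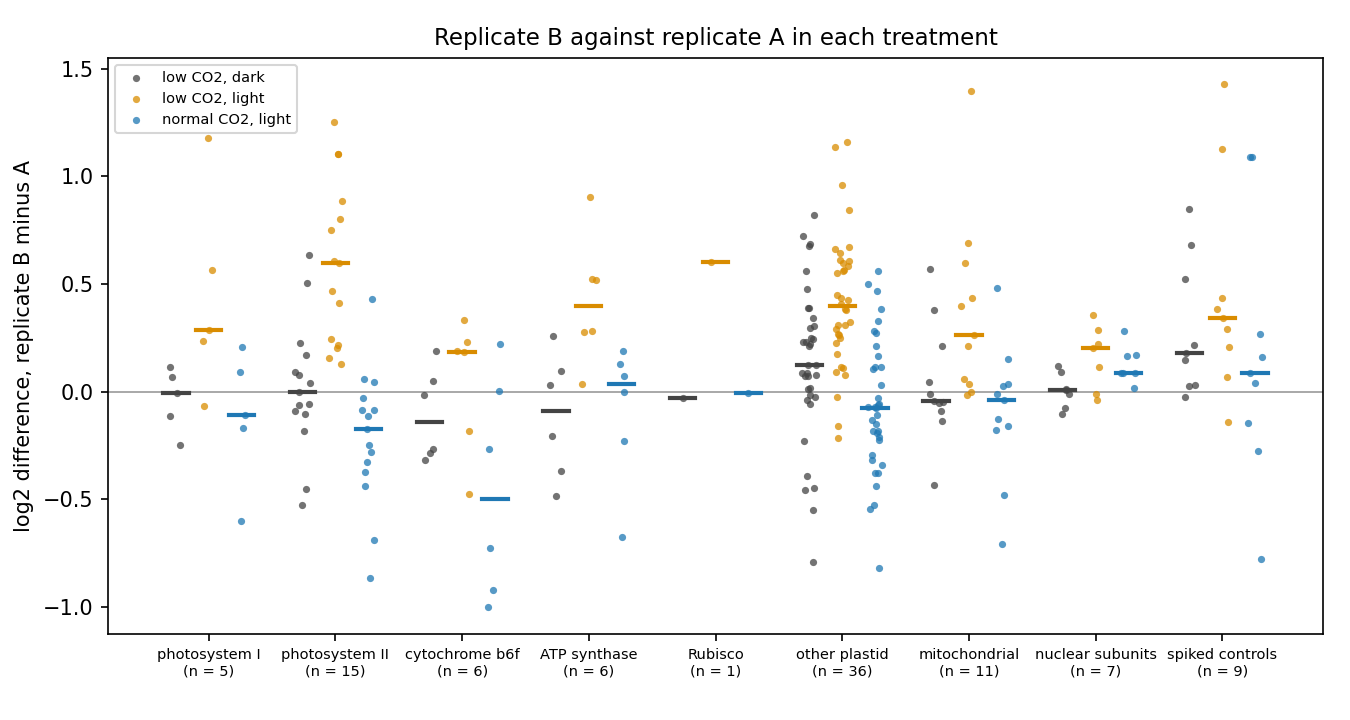
Log2 difference between replicate B and replicate A in each treatment, one point per gene or control and a bar at each median, for the 5 groups of plastid photosynthesis genes and for 4 comparison sets. At low CO2 in light the medians are 0.60 for photosystem II, 0.40 for other plastid genes and 0.26 for mitochondrial genes. Most of the mitochondrial probe sets are dim.

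Averaged over the 3 treatments, the B minus A difference had a median of 0.08 over the 33 genes, against -0.03 over all tested probe sets, and it was -0.09 when either low-CO2 light array was left out. In a limma model with treatment and letter, 0 of 33 genes differed between the letters, where 0.00879% of all tested probe sets did, and 2 (psbA and petN) had an unadjusted p under 0.05, as did 8.99% of all. B was above A in all 3 treatments for 7 genes (12.6% of all tested probe sets), namely psbA, psbZ, psaA, psaB, petB, atpB and atpE. It was below in all 3 for petN, psaC and petD (17.3% of all). psbA encodes D1, the reaction-centre protein that is replaced most often in light. Its A arrays read 642.1 in the dark, 592.5 in low-CO2 light and 559.4 in normal-CO2 light, and its B arrays 1002, 1421.1 and 756.6. Every B array of psbA was above every A array, by 0.77 ± 0.17 (limma adjusted p = 0.476). In petN the letter difference was -0.51 ± 0.12 (limma adjusted p = 0.476), in psaC -0.30 ± 0.14, in atpI -0.34 ± 0.16 and in rbcL 0.19 ± 0.16. For rbcL it was -0.02 when either low-CO2 light array was left out.

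Control probe sets also differed between the letters, at low CO2 in light and in the other treatments. Of 9 bacterial and phage control probe sets, whose targets are commonly spiked into the hybridisation mix, 8 were higher on low CO2 in light B than on A. In darkness B was also higher for each of them except the M probe set of bioB (0.983 times). At normal CO2 B was higher for those of bioC, bioD and cre and lower for those of bioB (0.584 to 0.904 times). At low CO2 in light the cre control read 1750.3 on A and 2369.1 on B with its 3 prime probe set, the lowest and the highest of the 6 arrays, and bioD read 618.2 and 784.4. Both probe sets of bioC were higher on B in every treatment, 2.18 and 2.69 times as high at low CO2 in light, 2.13 and 2.13 times at normal CO2 and 1.60 and 1.80 times in darkness. Of 7 control probe sets for genes of the plant itself, the 5 for actin and GAPDH were 0.713 to 0.834 times as high on B as on A at low CO2 in light. The 2 for ubiquitin were 1.13 and 1.18 times as high there. When each array was scaled to the 9 spiked controls, a setting added after their values were seen, the median B minus A difference of the 33 genes at low CO2 in light was -0.12, with 15 of 33 positive, and in darkness and at normal CO2 it was -0.31 and -0.28. This scaling moved the B minus A difference over all tested probe sets, averaged over treatments, from a median of -0.03 to -0.26, and that of the 33 genes from 0.08 to -0.22. The median light step was then 0.19 and the median CO2 step -0.10. Each control counted equally in this scaling, and the 2 bioC probe sets, which read 57.7 to 161.2, had the largest B to A ratios in every treatment. Scaling without bioC was not run, so how far the negative medians rest on these 2 probe sets is not known. The part that labelling or hybridisation had in the disagreement was not tested.

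Dimmer probe sets had higher light steps. Across the 33 genes, Spearman's rho between mean intensity and light step was -0.80, with -0.82 for the A arrays and -0.69 for the B arrays, given as a description because all genes share the same 6 arrays. For the 36 other named plastid genes rho was -0.63 (-0.33 in A, -0.69 in B), and over all tested probe sets it was -0.15. The 7 genes with a mean of at least 2000 (atpB, atpE, psaB, petB, psbM, psaA and petA) had light steps from -0.23 to 0.20, with 2 positive. The 26 dimmer genes had a median of 0.30, with 22 positive. Between the A arrays the bright genes had a median of -0.22 and the dimmer ones of -0.03. Between the B arrays these were 0.05 and 0.54. Among the 502 other tested probe sets with a mean of at least 1000, not of plastid or mitochondrial genes by name, the light step had a median of -0.14 in A and 0.01 in B. At low CO2 in light, B was above A for 382 of these 502, with a median log2 difference of 0.16.

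**Figure D4:**
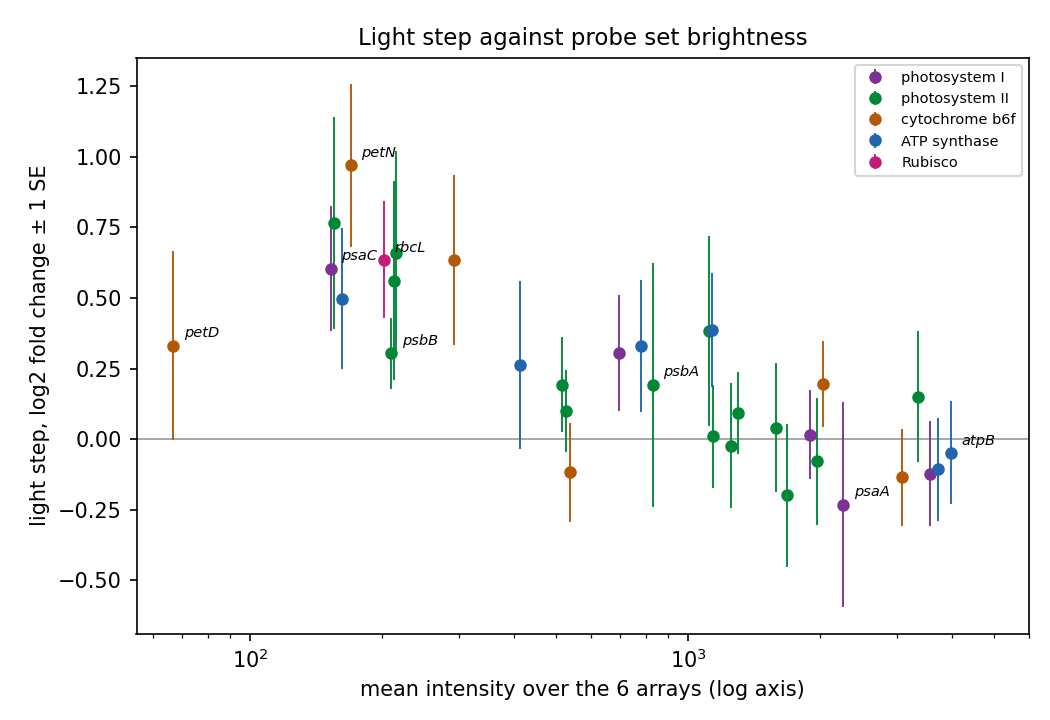
Light step of the 33 genes (log2 fold change ± 1 SE, limma, 6 arrays) against the mean intensity of their probe sets on a log axis, coloured by complex. The 7 genes with a mean of at least 2000 lie between -0.23 and 0.20, and the dimmer genes reach 0.97.

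Genes of one textbook operon, which are transcribed together, spanned different ranges of the light step. In the psbB operon the light step was 0.30 for psbB, 0.56 for psbT, 0.01 for psbH (a phosphoprotein of photosystem II), -0.13 for petB and 0.33 for petD, and the CO2 step ran from -0.80 for psbT to 0.28 for psbB. In the psbD operon psbD had 0.66, psbC (CP43, a core antenna protein) 0.38 and psbZ -0.08. In the petL operon petG had 0.63, petL -0.12 and psaJ 0.02. The 4 genes of the atpI operon lay closer together, from 0.26 to 0.50, as did those of the psbE operon (psbE, psbF, psbL and psbJ), from -0.02 to 0.19. Of the 4 operons with 2 of the 33 genes, psaA and psaB differed by 0.11, and atpB and atpE by 0.06. In the other operons psaI and petA differed by 0.11, and psbK (-0.20) and psbI (0.04) by 0.24. These ranges and differences cover only genes among the 33. The psaI operon also holds ycf4 and cemA, which are outside the 33 and had light steps of -0.02 and 0.13. The median SE of a light step over the 33 genes was 0.22, and differences between genes of an operon were not tested. Mean intensities also differed within operons. In the psbB operon they were 67 for petD, 210 for psbB, 213 for psbT, 1137 for psbH and 3083 for petB. In the psbD operon they were 215 for psbD, 1114 for psbC and 1969 for psbZ. In the petL operon petG had 292, petL 536 and psaJ 1900. How far the ranges of the light step follow brightness was not tested.

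Low-CO2 light B was also the highest array for most other plastid genes. Of 36 further plastid-encoded genes, for the NDH complex, ribosomal proteins, RNA polymerase and others, 0 passed in either step, and their medians were 0.13 in the light step and -0.10 in the CO2 step. An unadjusted p under 0.05 was found for 4 of them in the light step (ndhG, ndhK, rpl20 and rps16) and for 1 in the CO2 step (rpl20), below the shares of all tested probe sets given above. For 26 of the 36 the highest array was low CO2 in light B, and B exceeded A there for 33 of 36, with a median of 0.40. Of 11 mitochondrion-encoded genes 0 passed, and their median B minus A difference at low CO2 in light was 0.26, with 9 positive. Nuclear subunits of the same complexes and of Rubisco or its activase were named for 7 of the listed genes, ATPC1, ATPC2, PSAE-1, PSAN, PSBW, PSBY and RCA. None of these 7 passed in the light step, the CO2 step or their sum in limma, where 0 had an unadjusted p under 0.05, and light steps lay between -0.22 and 0.16. At low CO2 in light their median B minus A difference was 0.20, with 5 positive. Of 3 named nuclear light-harvesting genes, LHCB4.3 rose between the dark group and the normal-CO2 light group, by 0.84 ± 0.20 (limma adjusted p = 0.0336), and LHCB4.1 and LHCB4.2 did not pass. In that comparison 20.5% of all tested probe sets passed. The light step of LHCB4.3 was 1.28 ± 0.20 (limma adjusted p = 0.0517) and its CO2 step -0.44 ± 0.20 (limma adjusted p = 0.212). Its intensity was 352.2 and 376.2 in the dark group, 740.7 and 1085.5 in low-CO2 light, and 612.1 and 708.1 in normal-CO2 light, so both lit groups were above the dark one. For the 3 light-harvesting genes the median B minus A difference at low CO2 in light was 0.22, with 3 positive. Of the listed nuclear sigma factors and other plastid transcription and RNA factors, 0 had a named probe set and none is analysed here.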

How the data were processed

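Transcript levels were measured on 6 single-colour Affymetrix-type arrays of biotin-labelled RNA. The deposited table holds 1 intensity per probe set and array on a linear scale, which the authors made with MAS5, per the submitters' processing notes. The software version, the scaling target, detection calls and the primer used for cDNA were not stated in the labels or notes used. No normalization was added. Of the probe sets, 64 controls were left out and 22746 tested on the scale log2(intensity + 7.3). The added constant is percentile 20 of all intensities, so changes of dim probe sets are understated. Symbols came from the platform annotation (13513 probe sets with 1 symbol) and were placed by Entrez ID, or by symbol for mitochondrial genes, in the TAIR10.1 gene table.

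One limma 3.58.1 model (R 4.3.3) with 3 group means, 3 residual and 3.27 prior degrees of freedom and a mean-variance trend gave both steps and their sum. A second with treatment and letter (2 residual degrees of freedom) gave B minus A. Benjamini-Hochberg adjustment ran over all 22746 probe sets, threshold 0.05. The code was tested on simulated data. The number of arrays limits precision, and how the biological replicates were grown is not stated, so p-values measure the spread between these samples.

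The genes, lists and rules were chosen with earlier results of these data known. Values on all arrays are given for rbcL, for genes past the threshold, and per complex for the smallest p in each step and between letters. Others are named by operon, by counts of 7 or fewer, or as extremes chosen after their values were seen. Alternatives were other pseudocounts, normalizations, filters, variance models, array subsets, the letter as a block and each array left out. Sequences are not used here.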

Additional observations from a re-analysis of the deposited data

Results flagged for a closer look

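The 33 plastid photosynthesis genes moved in opposite directions in the 2 replicate letters, judged by their median, as did all tested probe sets. The median light step (log2 fold change) was -0.06 (-0.0615) between the A arrays and 0.37 (0.3732) between the B arrays. The CO2 step had 0.12 (0.1238) in A and -0.47 (-0.4719) in B. Their sum had 0.06 (0.06261) in A and -0.02 (-0.017) in B. Over all tested probe sets the light step had medians of -0.01 in A and 0.03 in B. For those probe sets the CO2 step had 0.09 and -0.09, and the sum 0.08 and -0.02. The difference between the letters within a step was not tested, since each letter has 1 array per treatment. No group had enough arrays for a check of single outlying arrays.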

How the results depend on the processing

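The letters were not taken as pairs. B minus A differences over all tested probe sets correlated between treatments with r = 0.31 (darkness and low CO2 in light), 0.16 (darkness and normal CO2) and 0.02 (low CO2 in light and normal CO2), and over the 33 genes with 0.53, 0.44 and 0.35. With 2 letters, neither the labels nor these values establish a pairing. With the letter as a replicate block, 1 of 33 genes passed in the light step and 1 in the CO2 step, petN in each (light step 0.97, adjusted p = 0.0474), and 1 in the sum, where 2.09%, 17.4% and 23.1% of all tested probe sets passed. With 1 array left out, the median of the sum ran from -0.07 to 0.06 (-0.06895 to 0.06365). Without low CO2 in light A, the CO2 step of psbN was -1.21, against -0.66 with all arrays. In the sum 2 genes (psbB and rbcL) passed in a model of only the arrays of its 2 groups, where 20.7% of all tested probe sets did. With arrays shifted to a common median 0 passed (20.6% of all), and the median over the 33 genes was -0.08 (-0.07743). With arrays scaled to the spiked controls 0 passed (8.76% of all). That last scaling turned the median letter difference to -0.22 and that of rbcL to -0.11. With 1 array left out, rbcL ran from -0.02 (-0.0199, either low-CO2 light array) to 0.30 (0.2976) between letters and from -0.47 (-0.4659, low-CO2 light A) to 0.14 (0.1372, low-CO2 light B) in the CO2 step. Over all tested probe sets the light step had 237 calls, against 12 with the spiked controls, 105 without the trend, 145 or 368 with a pseudocount of 32 or 1, 475 with the replicate block, 639 with dim probe sets left out and 0 in a model of only its 2 groups. With the spiked controls the CO2 step had 1107 and the sum 1992 calls, against 3321 and 4655. Leaving out 1 array gave 0 to 99, 0 to 2744 and 576 to 4695 calls. The cause was not tested. No direction changed under the pseudocounts, quantile normalization, the filter on dim probe sets or the variance model without trend, for the medians over the 33 genes and the named genes. Averaging several probe sets per gene was not run because each gene had 1.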
